A study of Mus musculus with 8 samples.

Results

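The genes described are 8 transcription regulators of late spermatogenesis: *Mybl1*, *Tcfl5*, *Rfx2*, *Crem*, *Sox30*, *Taf7l*, *Tbpl1* and *Spz1*. They were chosen by name as regulators of pachytene spermatocytes and spermatids, and were matched by gene symbol to the 40840 genes of the count tables, where all 8 were found. Whole testes of 12-day-old mice (P12) were profiled by RNAseq, with 4 wild type and 4 *Tra2b-cPEko* mice, each with a replicate letter from A to D. On a C57BL/6J background, the wild type mice were Tra2bPE fl/+, carrying 1 floxed and 1 ordinary allele of the *Tra2b* poison exon without Cre. The *Tra2b-cPEko* mice carried *Vasa-Cre* with 1 floxed allele and 1 allele from which the poison exon was already deleted (Tra2bPE fl/-). *Vasa-Cre* is a transgene active in germ cells alone, so Sertoli, Leydig and myoid cells kept the poison exon on the floxed allele only. A poison exon is an exon whose inclusion introduces a premature stop codon and so sends the mRNA to decay. Reads on genes numbered between 41998195 and 59101569 per wild type library and between 36757386 and 49992767 per *Tra2b-cPEko* library. According to the study's methods each library came from a separate mouse, whose exact age could differ slightly.

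Spermatogenesis passes from dividing spermatogonia through meiotic spermatocytes to haploid spermatids, and each step has its own transcription programme. Mybl1 (A-MYB) switches on the pachytene programme, including genes of the piRNA pathway that silences transposons. Rfx2, Crem and Sox30 are needed for genes used by round spermatids, and Taf7l and Tbpl1 are germ cell-enriched relatives of general transcription factors that bring RNA polymerase II to promoters. The first wave of spermatogenesis in juvenile mice runs nearly in step, so a P12 testis is rich in early spermatocytes and largely lacks spermatids.

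The germ cell markers matched that stage. Summed CPM (reads per 1e+06 gene reads, scaled by TMM factors) over 26 leptotene and zygotene markers lay between 2914.5 and 3772.6 per mouse. The 13 pachytene markers summed to between 175 and 395 CPM, with *Hspa2*, a testis heat shock protein, as the most abundant at a mean of 125 CPM. The 13 spermatid genes summed to between 4.83 and 6.27 CPM, and 11 of them had a mean under 1 CPM. *Prm2* and *Tnp2*, which package sperm chromatin, had no read in any library, and *Prm1* had 1 read in all. The levels below are therefore those of regulators in testes in which spermatid transcripts were scarce.

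Gene counts cannot show the loss of a single exon, so the genotype labels could not be checked directly. *Tra2b* itself measured 158, 166, 156 and 176 CPM in wild type mice A to D and 199.9, 190.3, 192 and 209 CPM in *Tra2b-cPEko* mice A to D. All the *Tra2b-cPEko* values lay above all the wild type values, with a log2 fold change of 0.27 (SE 0.05, edgeR adjusted p = 0.0552). The paper, using DESeq2, reported *Tra2b* mRNA as upregulated at an adjusted p under 0.05. *Tra2a*, the paralogous splicing regulator, averaged 129 ± 15.3 CPM in wild type testes, against 69.5 ± 3.36 CPM in *Tra2b-cPEko* ones (SD, n = 4 each), and fell by 0.89 on the log2 scale (SE 0.08, edgeR adjusted p = 0.00231).

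Promoter sequences were available for 6 of the 8 regulators in the RefSeq promoter table (build GRCm38.p6), for *Tcfl5*, *Rfx2*, *Sox30*, *Taf7l*, *Tbpl1* and *Spz1*. The 250 bases before each start were searched on both strands for short letter patterns that these factor families are known to bind. The MYB core AACGG was found in *Tcfl5*, *Rfx2* and *Sox30*, and in 14.5% of the 32851 promoters of the table. Those 3 sequences and that of *Taf7l*, which held the E-box CACGTG instead, are given here 5′ to 3′ on the gene's strand, ending at the base before the start, with AACGG (or its complement CCGTT) and CACGTG in capitals. They lie at chr2:180642692-180642941 (minus strand), chr17:56831009-56831258 (minus strand), chr11:45980060-45980309 (plus strand) and chrX:134476491-134476740 (minus strand), in that order.
Tcfl5: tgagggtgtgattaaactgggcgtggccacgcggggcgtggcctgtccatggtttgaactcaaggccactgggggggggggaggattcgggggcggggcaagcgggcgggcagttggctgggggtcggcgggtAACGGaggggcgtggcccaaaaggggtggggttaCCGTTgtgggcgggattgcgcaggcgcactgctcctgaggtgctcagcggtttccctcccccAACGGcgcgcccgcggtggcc
Rfx2: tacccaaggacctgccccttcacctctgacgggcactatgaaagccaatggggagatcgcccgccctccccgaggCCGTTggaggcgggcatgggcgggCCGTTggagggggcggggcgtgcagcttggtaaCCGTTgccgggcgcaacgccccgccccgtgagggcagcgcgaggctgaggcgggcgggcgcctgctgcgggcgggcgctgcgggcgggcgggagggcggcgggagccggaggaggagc
Sox30: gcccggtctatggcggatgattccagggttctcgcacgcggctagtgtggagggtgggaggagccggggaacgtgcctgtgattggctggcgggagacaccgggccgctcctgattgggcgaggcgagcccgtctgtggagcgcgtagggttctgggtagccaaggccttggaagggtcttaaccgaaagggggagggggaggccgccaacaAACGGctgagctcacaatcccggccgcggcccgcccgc
Taf7l: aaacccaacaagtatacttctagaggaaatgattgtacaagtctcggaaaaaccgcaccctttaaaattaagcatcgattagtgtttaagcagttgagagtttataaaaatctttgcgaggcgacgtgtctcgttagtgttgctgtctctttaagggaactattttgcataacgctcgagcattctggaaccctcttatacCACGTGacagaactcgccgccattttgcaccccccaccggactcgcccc

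*Tcfl5* held 3 copies of AACGG, with their first bases 117, 83 and 21 bases before the start. *Rfx2* also held 3, at 175, 151 and 118 bases before the start, and *Sox30* held 1 at 38 bases. *Taf7l* had CACGTG, the E-box read by bHLH factors such as Tcfl5, at 49 bases before the start, a pattern present in 6.02% of all promoters. The *Rfx2* window further held GTTGCC, one arm of the X-box that RFX factors bind, at 116 bases before the start, where it overlapped the nearest CCGTT. That arm occurred in 10.4% of promoters and also in that of *Spz1*. The full CRE palindrome TGACGTCA, to which Crem binds, occurred in 1.55% of promoters and in none of the 6 windows, while its first part TGACG (17.8% of promoters) was found in that of *Rfx2*. The SOX pattern ATTGT (27.7% of promoters) was present in *Sox30*, *Spz1* and *Taf7l*. TATAAA (12.4%) was found in *Taf7l* alone among the 6, at 148 bases before the start and, on the other strand, at 150. The looser MYB pattern AACNG, of which every core match is a case, was in 74.2% of promoters and in all 6. G and C made up 70.4%, 76.0% and 68.0% of the bases in *Tcfl5*, *Rfx2* and *Sox30* and 44.8% in *Taf7l*, beside a median of 52.4% over the table. These matches describe the letters in the windows and do not show binding.

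The expression of the 8 regulators was then compared between *Tra2b-cPEko* and wild type testes. None of the 7 regulators with enough reads for a test was called, with 0 of 7 at an adjusted p under 0.05 by edgeR's quasi-likelihood test and 0 of 7 by DESeq2. Over all 19104 genes tested, edgeR called 0.157%, and DESeq2 called 2.79% of 18149. At an unadjusted p under 0.05 edgeR picked out 1 regulator, *Taf7l*, beside 15.3% of all genes. For none of the 8, the untested *Spz1* among them, did the values of the genotypes separate, beside 8.54% of all genes tested. With so few regulators, no contrast with that share is drawn. Log2 fold changes lay between -0.21 (*Rfx2*) and 0.13 (*Sox30*), with a median of -0.09 beside -0.0011 over all genes, and 5 of 7 were below 0 beside 50.3% of all genes. Leaving out 1 mouse moved *Rfx2* between -0.36 and -0.05 and *Sox30* between 0.04 and 0.24.

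**Figure D1:**
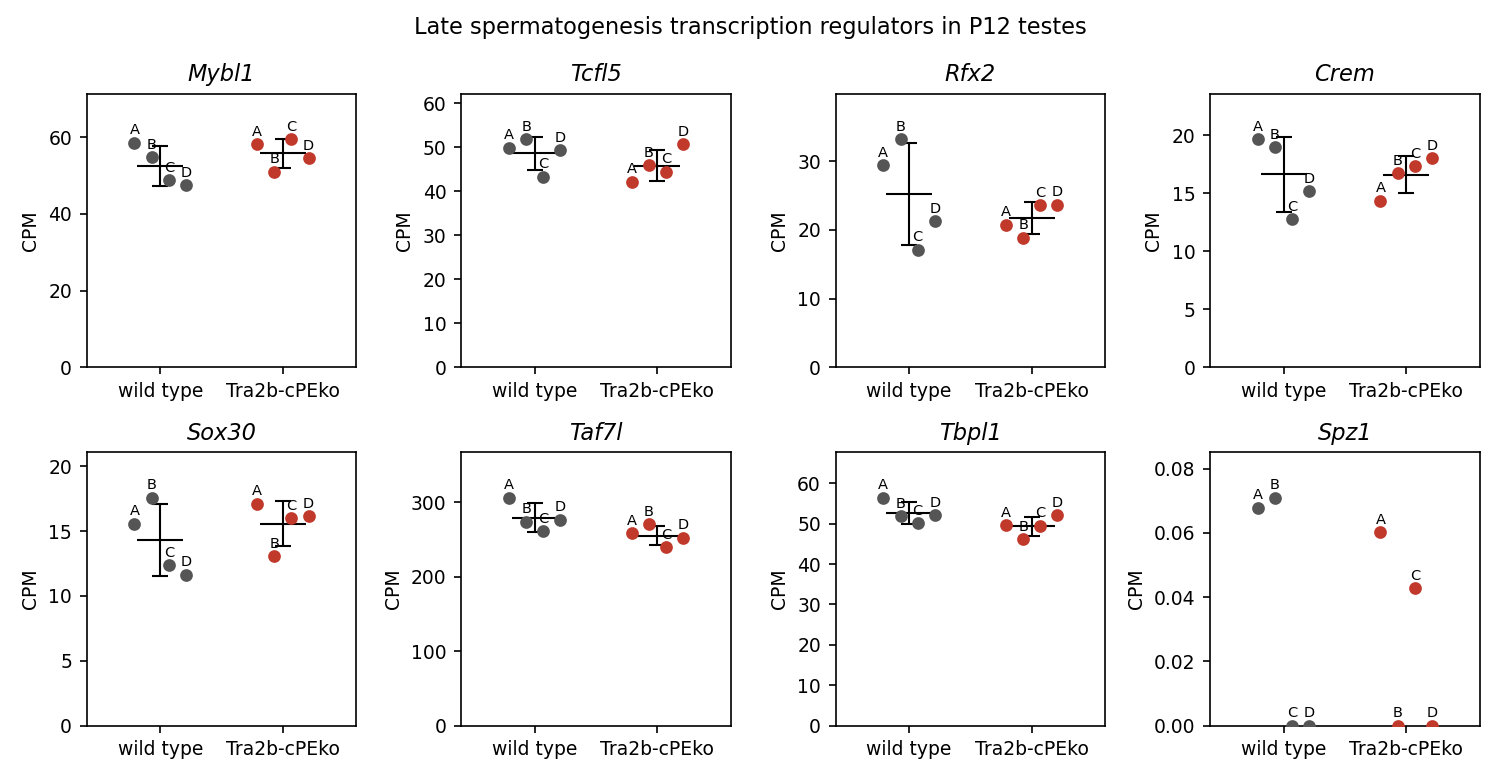
CPM of each regulator (vertical axes, each starting at 0) in the 4 wild type (grey) and 4 *Tra2b-cPEko* (red) mice, with letters naming the mice and bars giving the mean and SD (not drawn for *Spz1*, which had 11 reads in all). The genotypes overlap in every panel, and the wild type values of *Rfx2* range from 17.1 to 33.2 CPM.

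Mybl1 and Tcfl5 act from the pachytene stage. *Mybl1* (GRCm39 chr1:9737632-9770628, minus strand) measured 58.6, 54.7, 48.8 and 47.4 CPM in wild type mice A to D and 58.2, 51.0, 59.5 and 54.5 CPM in *Tra2b-cPEko* mice A to D. The highest value belonged to *Tra2b-cPEko* mouse C and the lowest to wild type mouse D, and the ranges overlapped. The log2 fold change was 0.09 (SE 0.07, 95% interval -0.06 to 0.25), with an edgeR adjusted p of 0.561. *Tcfl5* (chr2:180263529-180284556, minus strand), a bHLH factor of spermatocytes, measured 49.9, 51.8, 43.3 and 49.4 CPM in wild type mice A to D and 42.2, 46.0, 44.5 and 50.6 CPM in *Tra2b-cPEko* mice A to D. Its values in *Tra2b-cPEko* mouse D exceeded those of all wild type mice but B, and wild type mouse C lay below all *Tra2b-cPEko* mice but A. The log2 fold change was -0.09 (SE 0.07, 95% interval -0.23 to 0.06), with an edgeR adjusted p of 0.567. In percent, the intervals ran from -4.30% to 18.9% for *Mybl1* and from -15.0% to 4.31% for *Tcfl5*.

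Rfx2, Crem and Sox30 serve the programme of round spermatids. *Rfx2* (chr17:57081835-57138118, minus strand), a winged-helix factor for ciliary and flagellar genes, measured 29.4, 33.2, 17.1 and 21.2 CPM in wild type mice A to D. In *Tra2b-cPEko* mice A to D it measured 20.8, 18.8, 23.6 and 23.7 CPM. Wild type mice A and B were the 2 highest of all 8 and wild type mouse C the lowest, so that the *Tra2b-cPEko* values lay within the wild type range. The log2 fold change was -0.21 (SE 0.21, edgeR adjusted p = 0.664). Its 95% interval, from -38.3% to 20.5%, was the widest of the 7.

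*Crem* (chr18:3260980-3337748, minus strand), a leucine zipper factor that binds cAMP response elements, measured 19.7, 18.9, 12.8 and 15.2 CPM in wild type mice A to D and 14.4, 16.8, 17.3 and 18.0 CPM in *Tra2b-cPEko* mice A to D. The order of mice resembled that of *Rfx2*, with wild type mice A and B highest and wild type mouse C lowest. The genotype means were both 16.6 CPM, with SDs of 3.25 (wild type) and 1.59 (*Tra2b-cPEko*). The log2 fold change was -0.0019 (SE 0.13, 95% interval -0.29 to 0.29, edgeR adjusted p = 0.997). *Crem* encodes activator and repressor isoforms, and GENCODE lists 46 transcripts, which a count over the whole gene does not separate.

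*Sox30* (chr11:45871054-45908824, plus strand), an HMG-box factor, measured 15.6, 17.6, 12.4 and 11.6 CPM in wild type mice A to D and 17.1, 13.05, 16.0 and 16.1 CPM in *Tra2b-cPEko* mice A to D. Wild type mouse B was highest and wild type mice C and D were lowest, below every *Tra2b-cPEko* mouse. The log2 fold change was 0.13 (SE 0.13, 95% interval -0.16 to 0.42, edgeR adjusted p = 0.678).

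Taf7l and Tbpl1 belong to the general transcription machinery. *Taf7l* (chrX:133360861-133377290, minus strand), a germ cell paralogue of the TFIID subunit Taf7, measured 306, 274, 261 and 277 CPM in wild type mice A to D. In *Tra2b-cPEko* mice A to D it measured 259, 271, 240.1 and 252 CPM. Wild type mice A, D and B were the 3 highest, and only *Tra2b-cPEko* mouse B exceeded a wild type value, that of mouse C. The change was -8.62% (95% interval -15.8% to -0.812%), or -0.13 on the log2 scale (SE 0.05), and it did not pass the adjustment (edgeR unadjusted p = 0.0337, adjusted p = 0.286; DESeq2 adjusted p = 0.235). A two-sided exact permutation of the mice on log2 CPM gave p = 0.0571, where 4 mice a group cannot give less than 0.0286.

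*Tbpl1* (chr10:22575092-22607892, minus strand), a relative of the TATA-binding protein, measured 56.4, 51.9, 50.05 and 52.0 CPM in wild type mice A to D and 49.6, 46.1, 49.5 and 52.0 CPM in *Tra2b-cPEko* mice A to D. Wild type mouse A was highest and *Tra2b-cPEko* mouse B lowest, while *Tra2b-cPEko* mouse D fell among the wild type mice. The log2 fold change was -0.09 (SE 0.05, 95% interval -0.21 to 0.02, edgeR adjusted p = 0.430). In GENCODE the *Tbpl1* locus overlaps *Slc2a12* and *Gm66854* on the other strand and *Gm56675* and *Mir7663* on its own. Strand use in the counting is not stated, so shared reads could have been dropped or misassigned where the counting annotation holds these genes. The same holds for *Tcfl5* (*Col9a3*, *Gm54097*, *Gm75496*), *Rfx2* (*Gm41604*, *Gm64631*), *Crem* (*Gm6225*) and *Sox30* (*Gm73597*) beside the opposite-strand genes named. Whether the counting annotation holds each of them was not tested.

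*Spz1* (chr13:92711144-92712680, minus strand), a testis bHLH-zip factor, had few reads at P12. In GENCODE *Gm60288* overlaps it on the other strand and so shares its sequence, and could have taken reads from it if counted. *Spz1* had 3, 3, 0 and 0 reads in wild type mice A to D and 3, 0, 2 and 0 reads in *Tra2b-cPEko* mice A to D, 11 in all. A library with 0 reads allows up to 3, or between 0.0508 and 0.0817 CPM in these libraries by counting error alone. No fold change is given and no difference was detectable at this depth.

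**Figure D2:**
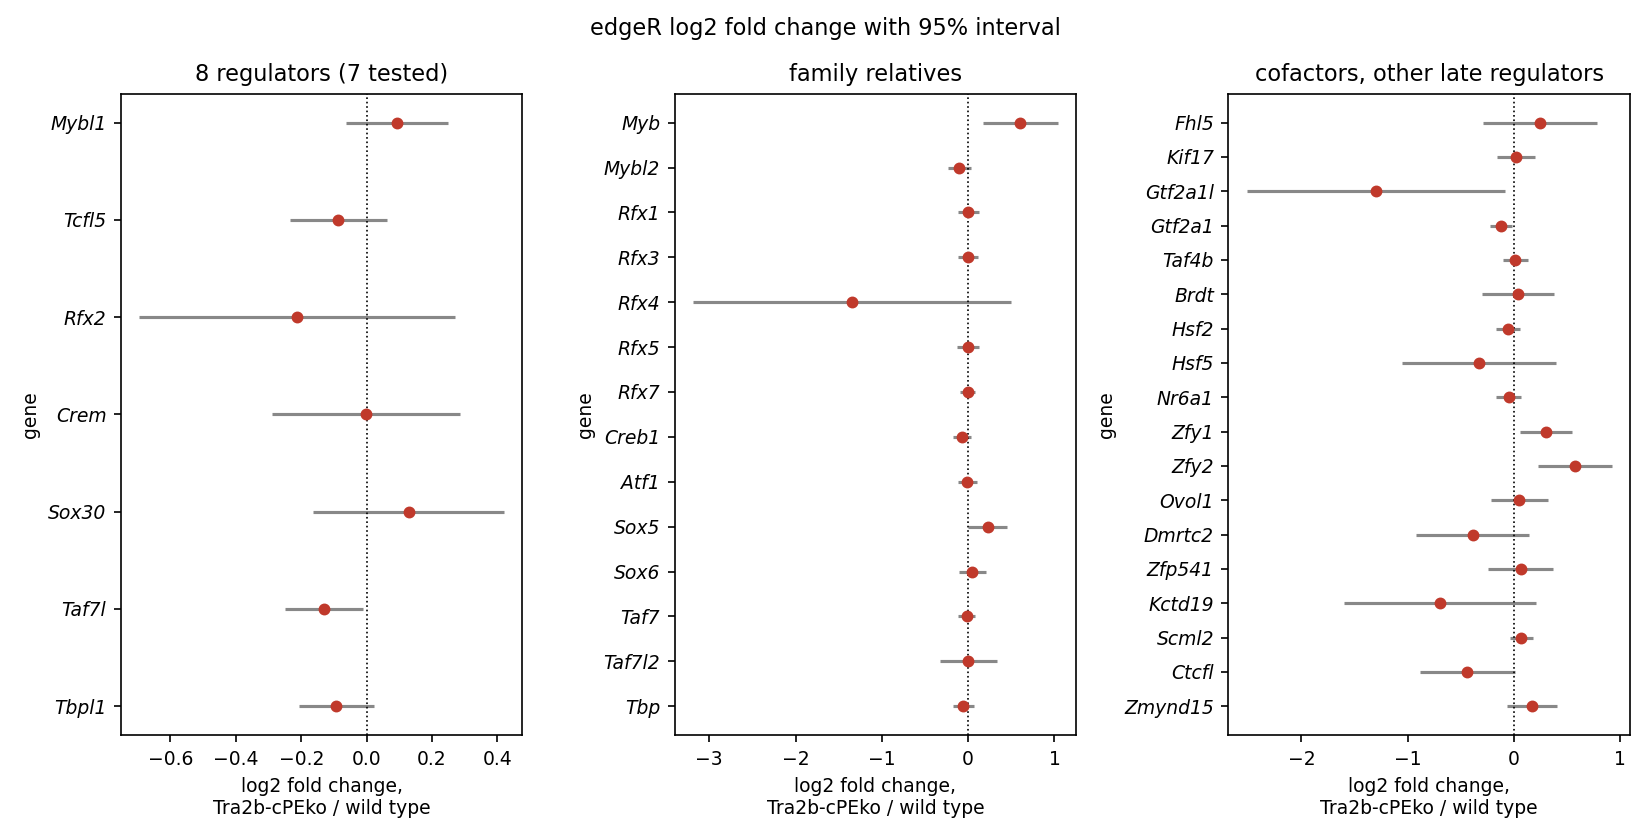
Log2 fold change of *Tra2b-cPEko* over wild type (horizontal axes, points) with 95% intervals from edgeR (lines) for the 7 tested regulators, their family relatives and other late germ cell regulators (rows), with the scale differing between panels. Of the 7 regulators, only the interval of *Taf7l*, from -0.25 to -0.01, lies on one side of 0.

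Among the 7 tested regulators, the variation among mice was largest for *Rfx2*, *Crem* and *Sox30*. In wild type mice the coefficient of variation was 29.3% for *Rfx2*, 19.5% for *Crem* and 19.4% for *Sox30*, at or above the percentile 81.6 of all genes tested. It was 9.98% for *Mybl1*, 7.59% for *Tcfl5*, 6.86% for *Taf7l* and 5.17% for *Tbpl1*, beside a median of 8.77% over all genes. In *Tra2b-cPEko* mice the same coefficients were 10.8% for *Rfx2*, 9.56% for *Crem* and 11.3% for *Sox30*, and between 4.92% and 7.82% for the other four. Whether the spread differed between genotypes was not tested. Over the 8 mice the highest CPM was 1.94 times the lowest for *Rfx2*, and between 1.22 and 1.54 times for the other 6 tested regulators.

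The same wild type mice stood apart in the pachytene markers. The pachytene markers summed to 376, 395, 175 and 213 CPM in wild type mice A to D, and to 229, 196, 259 and 244 CPM in *Tra2b-cPEko* mice A to D. Relative to the mean of the 8 mice, the log2 value of this sum was 0.53 and 0.60 in wild type mice A and B and -0.58 in wild type mouse C, where *Rfx2* stood at 0.32, 0.50 and -0.46. *Crem* stood at 0.24, 0.19 and -0.38 in those mice. The leptotene and zygotene sum stood at 0.26, 0.07 and -0.11 in the same 3 mice, and the Sertoli sum (9 markers, most abundant *Aard*) at 0.03, 0.05 and 0.03. Of the 13 pachytene markers, 11 were tested and 0 called, with a median log2 fold change of -0.40, and 4 had a mean under 1 CPM. In whole testes, fewer cells of a type and less RNA per cell cannot be told apart. The part of pachytene marker content in the values of *Rfx2*, *Crem* and *Sox30* was not tested.

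Wild type mouse A was among the 3 highest of the 8 mice for 6 of the 7 tested regulators, and wild type mouse B and *Tra2b-cPEko* mouse D each for 5. Wild type mouse C was among the 2 lowest for 5. Without wild type mice A and B, a choice made after seeing these values, the log2 fold change of *Rfx2* was 0.18 (edgeR adjusted p = 0.599), that of *Crem* 0.25 (0.452) and that of *Sox30* 0.38 (0.263). These were the 2 highest of the 8 mice for *Rfx2* and *Crem*, and the 2 highest wild type mice for *Sox30*. Leaving them out therefore raises those fold changes by construction, and the values say nothing of direction. In that fit 0 regulators were called.

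**Figure D3:**
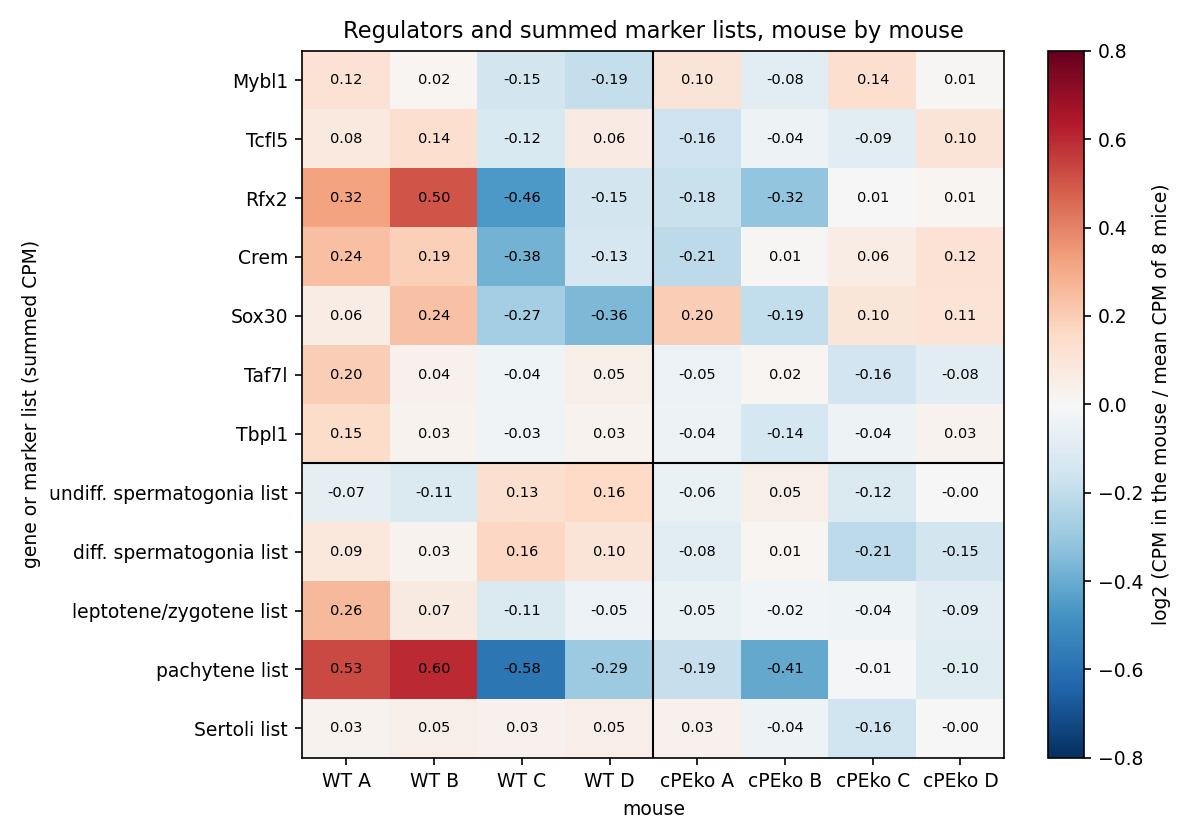
Log2 of the CPM in each mouse over the mean of the 8 mice (colour and printed values) for the 7 tested regulators and the summed marker lists (rows), with wild type mice (WT) left and *Tra2b-cPEko* mice (cPEko) right. Wild type mice A and B are high and wild type mouse C low in *Rfx2* (0.32, 0.50 and -0.46), in *Crem* and in the pachytene sum (0.53, 0.60 and -0.58).

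For each regulator the 2 genes with the nearest profile over the 8 mice were found among 15484 genes of at least 1 CPM, as the root-mean-square distance between mean-centred log2 CPM. *Rfx2* lay closest to *Ttll13* (0.0491), a tubulin polyglutamylase gene, and *Gm11837* (0.0800), beside a median distance of 0.319 over all those genes. *Crem* lay closest to *Prr22* (0.0790) and *Ces1a* (0.0836), and *Sox30* to *Arhgap33* (0.0467) and *Psd* (0.0590). The nearest genes to *Mybl1* were *Hspa5* (0.0194), a chaperone of the endoplasmic reticulum, and *BC004004* (0.0201). Those to *Tcfl5* were *Zcrb1* (0.0343) and *Mrpl12* (0.0370), those to *Taf7l* were *Itfg2* (0.0232) and *Cep55* (0.0307), and those to *Tbpl1* were *Pcgf5* (0.0258) and *Sav1* (0.0277). A gene that varies little lies near many genes by this measure.

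Levels were next set side by side per length, as CPM per kilobase of the merged exons of all GENCODE transcripts of a gene. In wild type testes *Taf7l* stood highest at 121 ± 8.33 CPM per kb, followed by *Tbpl1* at 7.26 ± 0.376, *Mybl1* at 6.73 ± 0.671, *Tcfl5* at 5.90 ± 0.448 and *Sox30* at 4.63 ± 0.901 (SD, n = 4). *Rfx2* followed at 2.84 ± 0.831, *Crem* at 1.47 ± 0.288 and *Spz1* at 0.0226 CPM per kb. Over all 8 mice, neighbours from *Tbpl1* down to *Sox30* had overlapping ranges, and *Tbpl1* exceeded *Mybl1* in 5 of 8 mice. *Taf7l*, *Rfx2*, *Crem* and *Spz1* each lay apart from their neighbours in the order, *Rfx2* only just, with 3.74 CPM per kb at its highest beside 3.78 for the lowest *Sox30*. Merged exon length grows with the number of annotated transcripts, which lowers the value of genes such as *Crem*.

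**Figure D4:**
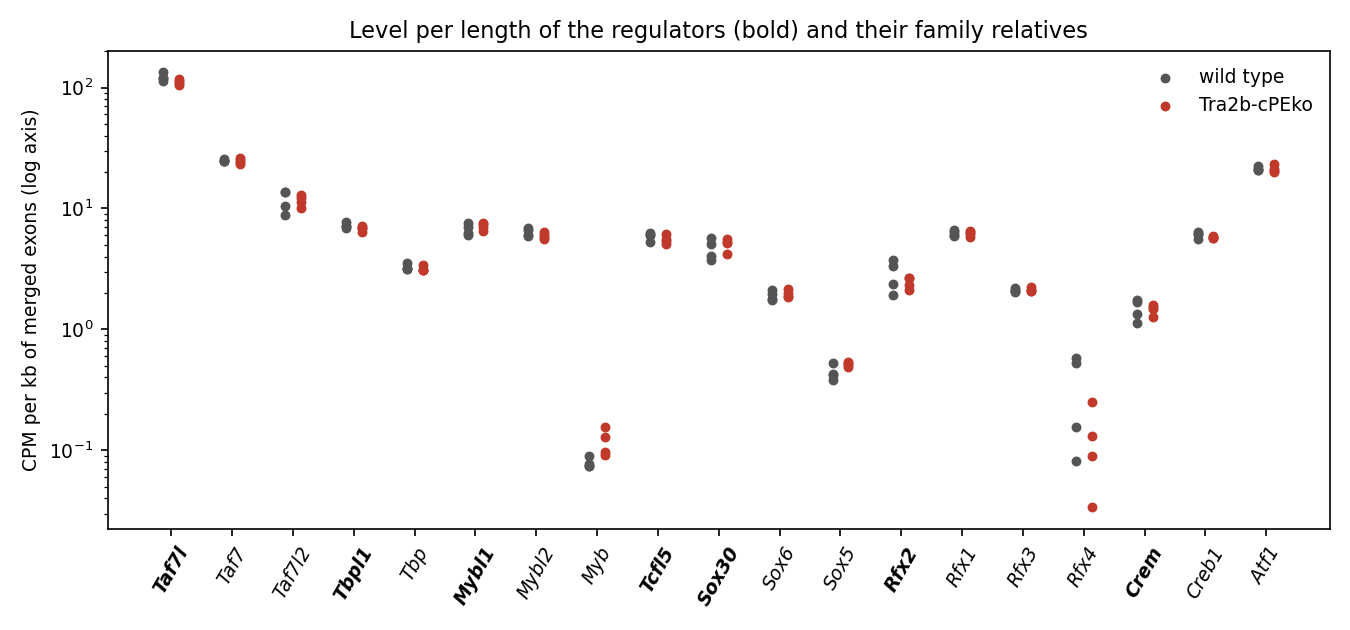
CPM per kb of merged exons (vertical log axis) of 7 regulators (bold) and 12 of their family relatives in each wild type (grey) and *Tra2b-cPEko* (red) mouse. *Taf7l* lies above the other genes drawn, at 104 to 133 CPM per kb; *Spz1*, *Tbpl2*, *Rfx5* and *Rfx7* are not drawn.

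Several regulators have a widely expressed relative. *Taf7l* was 4.88 ± 0.409 times its ubiquitous paralogue *Taf7* per length in wild type, and 4.51 ± 0.218 times it in *Tra2b-cPEko* (SD, n = 4 each). *Taf7l2*, an intronless relative, averaged 11.7 CPM per kb in wild type testes. *Tbpl1* stood at 2.21 ± 0.0325 times *Tbp* in wild type against 2.16 ± 0.138 times in *Tra2b-cPEko*. By CPM alone the pair was nearly level, at 52.6 and 51.1 CPM in wild type, since the merged exons of *Tbp* span 15538 bases and those of *Tbpl1* 7241. *Mybl1* stood at 1.06 ± 0.161 and 1.21 ± 0.136 times *Mybl2*. *Rfx2* measured 0.455 ± 0.123 of *Rfx1* in wild type against 0.393 ± 0.0505 in *Tra2b-cPEko*, and *Crem* 0.246 ± 0.0572 and 0.256 ± 0.0252 of *Creb1*. Of 12 such ratios computed, the difference between genotypes was smaller than the larger SD in 11. The exception was *Mybl1* over *Myb*, at 86.5 ± 15.2 in wild type against 62.6 ± 12.3 in *Tra2b-cPEko*, where *Myb* had a mean near 1 CPM.

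Of 15 listed family relatives, 14 were tested and 0 called by edgeR or DESeq2, with a median log2 fold change of -0.0059 and 1 at an unadjusted p under 0.05. That gene was *Myb* (c-MYB), at 0.702 ± 0.0649 CPM in wild type against 1.06 ± 0.272 CPM in *Tra2b-cPEko* (SD, n = 4 each). Its log2 fold change was 0.60 (SE 0.20, edgeR adjusted p = 0.201), and its values did not overlap between genotypes. *Sox5* followed with 0.23 (edgeR adjusted p = 0.327), and the most abundant relative, *Rfx7*, with -0.0077 (0.945).

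The 18 cofactors and other late germ cell regulators, among them partners of Crem and the bromodomain factor Brdt, were all tested and 0 were called by edgeR, with 2 higher and 2 lower at an unadjusted p under 0.05 and 1 called by DESeq2. Over all genes, 15.3% had an unadjusted p under 0.05 and DESeq2 called 2.79%. Log2 fold changes were below 0 for 8 and above 0 for 10, with a median of 0.02. The gene called by DESeq2 was *Zfy2*, a Y-linked zinc finger regulator of meiosis, at 8.73 ± 1.98 CPM in wild type against 12.9 ± 1.93 CPM in *Tra2b-cPEko*. Its log2 fold change was 0.57 (SE 0.16, edgeR adjusted p = 0.150, DESeq2 adjusted p = 0.0193), and its copy *Zfy1* had 0.30 (edgeR adjusted p = 0.247). The 2 lower genes, named after their values were seen, encode forms of the general factor TFIIA. *Gtf2a1*, whose values did not overlap between genotypes, had -0.12 (edgeR unadjusted p = 0.0255, adjusted p = 0.264). Its germ cell relative *Gtf2a1l* had -1.30 (edgeR unadjusted p = 0.0393, adjusted p = 0.301). *Gtf2a1l* measured 1.83, 2.25, 0.547 and 0.593 CPM in wild type mice A to D and between 0.272 and 0.682 CPM in *Tra2b-cPEko* mice. Only wild type mice A and B stood above all *Tra2b-cPEko* mice. The most abundant of the list, the Polycomb-like gene *Scml2*, had 0.07 (edgeR adjusted p = 0.542).

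Gene classes placed under these regulators were read as lists, and whether each listed gene depends on them was not tested. Over all genes, 15.3% had an unadjusted edgeR p under 0.05 and DESeq2 called 2.79%. Of 12 piRNA pathway genes, the pathway under Mybl1, 10 had a log2 fold change below 0, 0 were called by edgeR, 4 had an unadjusted p under 0.05 and 1 was called by DESeq2, with a median of -0.16. Their summed CPM was 1353, 1332, 1125 and 1132 in wild type mice A to D, and 1144, 1077, 1161 and 1150.4 in *Tra2b-cPEko* mice A to D, with wild type mice C and D inside the *Tra2b-cPEko* range. *Mael*, a piRNA biogenesis factor, had -0.22 (SE 0.06, edgeR adjusted p = 0.140, DESeq2 adjusted p = 0.0381), and *Fkbp6*, the most abundant, -0.13 (SE 0.05, edgeR adjusted p = 0.218). *Piwil1*, chosen after its values were seen, measured 43.6, 46.8, 10.2 and 14.4 CPM in wild type mice A to D and 11.1, 9.04, 14.3 and 10.9 CPM in *Tra2b-cPEko* mice A to D. As in *Rfx2*, wild type mice A and B stood above all others, and wild type mice C and D lay within or near the *Tra2b-cPEko* range. This was not so for every gene of the list. In 2 of the 12, *Fkbp6* among them, all *Tra2b-cPEko* values lay below all wild type values. Over all genes, 8.54% had values that did not overlap, in either direction.

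Of 15 cilium and axoneme genes, the class under Rfx2, 14 were tested and 13 had a log2 fold change below 0, with a median of -0.37. Their summed CPM was 265, 280.2, 181 and 188 in wild type mice A to D, and 195, 184, 211 and 205 in *Tra2b-cPEko* mice A to D, so that only wild type mice A and B stood above the *Tra2b-cPEko* mice. EdgeR called 0, while 5 had an unadjusted p under 0.05 (beside 15.3% of all genes) and DESeq2 called 2 (beside 2.79%). These were *Tekt2*, a tektin of axonemal microtubules, with -0.47 (SE 0.13, edgeR adjusted p = 0.134, DESeq2 adjusted p = 0.0368), and *Spag17*, a central pair protein, with -2.39 (SE 0.74, edgeR adjusted p = 0.226, DESeq2 adjusted p = 0.0368). *Tekt2* measured 6.09, 5.70, 5.41 and 4.24 CPM in wild type mice A to D and between 3.61 and 4.28 CPM in *Tra2b-cPEko* mice, so that wild type mice A, B and C all lay above the *Tra2b-cPEko* mice. *Spag17* measured 4.86, 4.19, 0.736 and 1.34 CPM in wild type mice A to D and between 0.272 and 0.983 CPM in *Tra2b-cPEko* mice. The 2 high values of *Spag17* were again wild type mice A and B, while wild type mouse C lay among the *Tra2b-cPEko* mice. *Ift172*, the most abundant, had -0.04 (edgeR adjusted p = 0.822).

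Spermatid genes, the class under Crem and Sox30, were tested for 6 of 13, with 4 above and 2 below 0, a median log2 fold change of 0.17 and 0 called by edgeR. DESeq2 gave an adjusted p for 2 of the 6 and called neither. The one at an unadjusted p under 0.05 was *Spaca1*, an acrosomal membrane protein and the most abundant, at 2.46 ± 0.207 CPM in wild type against 3.13 ± 0.321 CPM in *Tra2b-cPEko* (log2 fold change 0.35, SE 0.12, edgeR adjusted p = 0.221). *Tnp1* had -0.54 (edgeR adjusted p = 0.369) from a mean of at most 0.319 CPM.

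**Figure D5:**
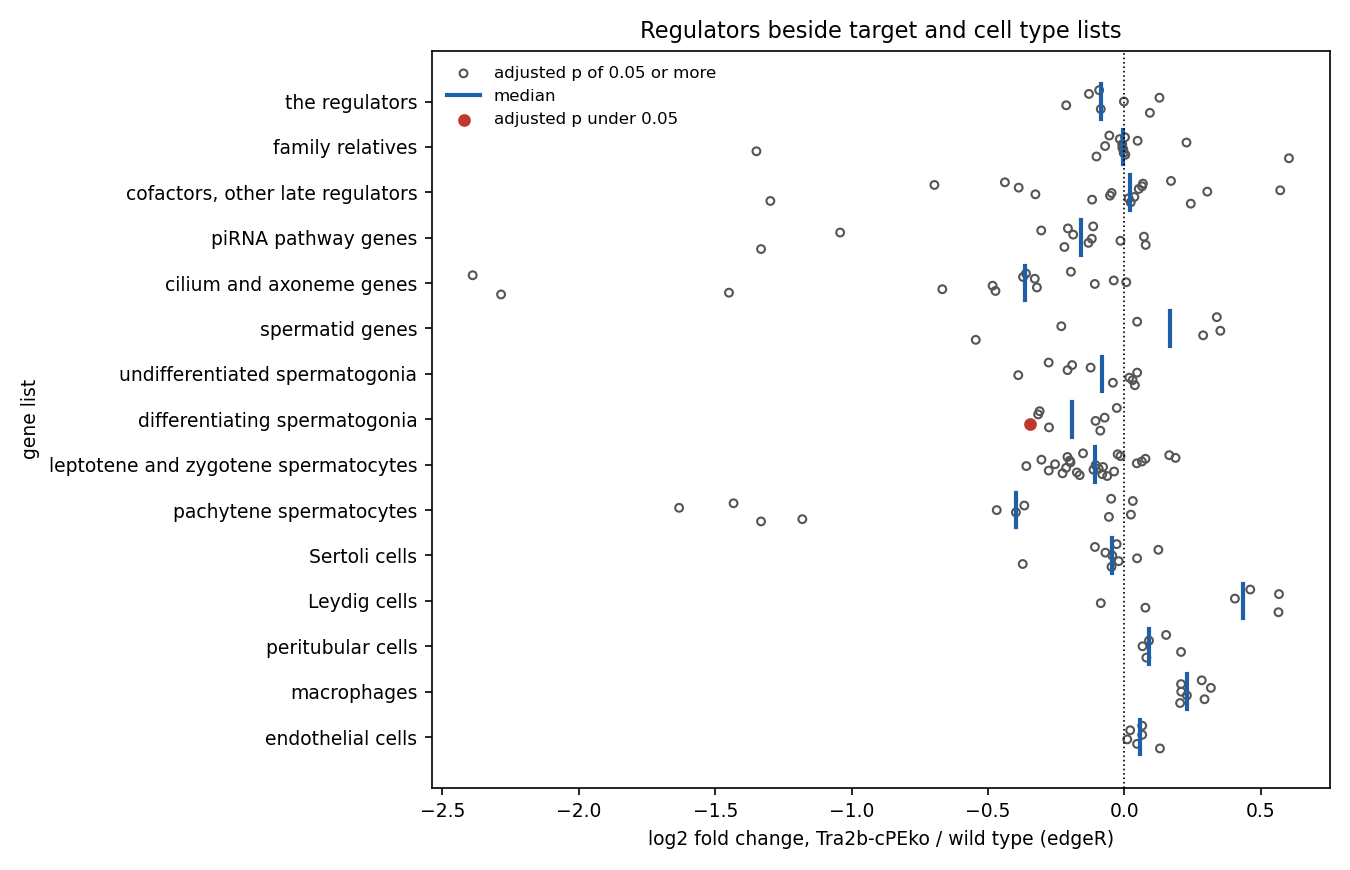
Log2 fold change of *Tra2b-cPEko* over wild type (horizontal axis) for each tested gene of the regulators, other gene lists and cell type markers (rows). Blue bars mark the medians, and filled red marks an edgeR adjusted p under 0.05. The only filled point is *Sohlh1* at -0.34, and the 7 regulators lie between -0.21 and 0.13.

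Among germ cell markers, 1 gene of all the lists was called by edgeR, where 0.0262% of all genes were called lower. *Sohlh1*, a bHLH regulator of differentiating spermatogonia, measured 43.9, 49.0, 50.7 and 46.1 CPM in wild type mice A to D and 38.1, 38.1, 35.9 and 37.3 CPM in *Tra2b-cPEko* mice A to D. All *Tra2b-cPEko* values lay below all wild type values, and it fell by 0.34 on the log2 scale (SE 0.05, edgeR adjusted p = 0.0341). It was called in 10 of 17 alternative fits, with log2 fold changes between -0.38 and -0.31 in all 17. The call was lost with limma-voom (adjusted p = 0.0583), without robust estimation (edgeR, 0.0531), without wild type mouse B (0.119), without *Tra2b-cPEko* mouse A (0.101), C (0.108) or D (0.148), and without wild type mice A and B (0.0691). The other 7 differentiating spermatogonia markers also had a log2 fold change below 0, among them *Ccnd2*, the most abundant, with -0.31 (SE 0.09, edgeR adjusted p = 0.159, DESeq2 adjusted p = 0.0259). Of the 8 differentiating markers, 3 had an unadjusted edgeR p under 0.05 and DESeq2 called 2, beside 15.3% and 2.79% of all genes. Of 26 leptotene and zygotene markers, 21 were below 0 with a median of -0.11, and 0 were called by edgeR. Of these 26, 9 had an unadjusted p under 0.05 and 3 were called by DESeq2, beside the same shares. The smallest p was that of *Mei1*, needed for meiotic recombination and 1 of the 3 called by DESeq2 (-0.36, edgeR adjusted p = 0.101, DESeq2 adjusted p = 0.00593). Values did not overlap for 3 of the 26, *Mei1* among them, all lower in *Tra2b-cPEko*, beside 8.54% of all genes in either direction. The most abundant, *Tex15*, had -0.01 (edgeR adjusted p = 0.936). Of the pachytene markers, *Acr* had -1.63 (0.295), *Dkkl1* -1.43 (0.328) and *Hspa2* -0.06 (0.930). Undifferentiated spermatogonia markers (10 tested, 0 called, 1 at an unadjusted p under 0.05) had a median of -0.08, with *Sall4* at -0.21 (edgeR adjusted p = 0.159), *Lin28a* at -0.12 (0.380) and *Zbtb16* at 0.04 (0.887).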

How the data were processed

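The authors deposited raw read counts in a table for each mouse, listing 40840 gene symbols and then 5 summary lines that were left out of library sizes and tests. The submitters' processing notes name HISAT2 2.2.1, SAMtools 1.7.1, HTSeq 2.0.2 and deepTools 3.5.1, and the study's methods name GRCm39, NCBI annotation and Salmon, although such summary lines are an HTSeq output. The libraries were stranded. Whether the counting used strand is not given in the sources used here. The share of listed reads that fell on genes was 67.6% to 69.0% in wild type and 66.4% to 67.3% in *Tra2b-cPEko* libraries. Chi-square values between libraries of a genotype, divided by their degrees of freedom, were 5.79 to 17.5, so no library repeats another of its genotype.

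Genotypes were compared with edgeR 4.0.16 (R 4.3.3) by the robust quasi-likelihood F-test, with no covariate, TMM scaling and the filterByExpr filter (at least 10 counts, total at least 15), which kept 19104 genes. Calls are at an adjusted p (Benjamini-Hochberg) under 0.05. The 95% intervals use the fit's moderated degrees of freedom. DESeq2 1.42.0 and limma 3.58.1 (voom), other factors, filters and thresholds, a replicate block and fits without each mouse were alternatives. The fit without wild type mice A and B was added after seeing the data. Exact permutation tests used log2 CPM (prior count 0.5) over 70 arrangements. The steps were tested on simulated data.

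Positions and merged exon lengths came from GENCODE vM39 (GRCm39), promoters from RefSeq (GRCm38.p6). Near-identical transcripts, some from overlapping genes (95% identity over at least 50% of a transcript, BLAST+ 2.17.0) were found for *Mybl1*, *Tcfl5*, *Tbpl1* and *Spz1*, whose reads could be split. The regulators and lists were chosen with earlier results of these data known. Named genes are the regulators, *Tra2b* and *Tra2a*, in each list the called genes, the most abundant gene and the 2 with the smallest p, and the 2 genes nearest to each regulator in profile. *Piwil1*, *Gtf2a1*, *Gtf2a1l*, *Prm1*, *Prm2*, *Tnp2*, overlapping genes and the relatives whose levels are set beside the regulators are named outside this rule. One gene that it names is not reported here.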

Additional observations from a re-analysis of the deposited data

Results flagged for a closer look

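Reads that fell outside annotated genes, which entered no comparison of the regulators, made up 12.8%, 12.6%, 12.4% and 12.6% of the reads listed for wild type mice A to D and 13.2%, 13.5%, 13.5% and 13.6% for *Tra2b-cPEko* mice A to D. The mean was 12.6% ± 0.135 in wild type against 13.44% ± 0.165 in *Tra2b-cPEko* (SD, n = 4 each). Each *Tra2b-cPEko* mouse exceeded each wild type mouse in this share, with a two-sided exact permutation p of 0.0286, the smallest the design allows. The share of reads on genes separated the genotypes as well, at 68.3% ± 0.673 in wild type against 66.96% ± 0.376 in *Tra2b-cPEko* (SD, n = 4 each), with the same exact p. These are 2 of 5 library measures compared, and their exact p adjusted over the 5 (Benjamini-Hochberg) was 0.0714. The part of these shares in the values of the regulators was not tested. In the 14 groups of 4 mice given by the 7 tested regulators, 0 values stood far from the other 3 by Dixon's criterion, where chance gives about 0.7.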

How the results depend on the processing

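Regulators were called in none of the 17 alternatives to the edgeR fit nor at thresholds of 0.1 and 0.01, and 110 of 119 log2 fold changes kept their sign. The count over all genes was 30. It was 507 with DESeq2, 58 with upper-quartile factors, 123 without a filter, 14 when a mean count of 50 was required, 11 by limma-voom, 12 without robust estimation, 156 at a threshold of 0.1 and 3 at 0.01. Leaving out 1 mouse gave between 3 (without *Tra2b-cPEko* mouse D) and 84 (without wild type mouse C), with 76 without *Tra2b-cPEko* mouse B and 9 without wild type mouse A, without wild type mouse B or without *Tra2b-cPEko* mouse C, and 10 without *Tra2b-cPEko* mouse A. Without wild type mice A and B it was 1. Called genes in the other lists numbered 1 and became 11 with DESeq2, 0 with limma-voom, without robust estimation and without wild type mice A and B, and 0 to 3 when 1 mouse was left out. Regulators without overlap numbered 0, and 0 to 1 when 1 mouse was left out: *Taf7l* lower without wild type mouse C or *Tra2b-cPEko* mouse B, *Tbpl1* lower without *Tra2b-cPEko* mouse D. The share of all genes without overlap was 17.0%, 14.6% and 11.9% in those 3 fits. Without wild type mice A and B the regulators without overlap numbered 2 (*Mybl1* and *Sox30*, both higher), beside 20.5% of all genes. In both genes A and B were the 2 highest wild type mice, so leaving them out raises the fold change by construction.

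*Crem*, with a log2 fold change of -0.0019, turned positive with upper-quartile factors (0.016), a required mean count of 50 (0.00053), voom (0.017), a replicate block (0.013), and without wild type mouse A (0.086), wild type mouse B (0.066), *Tra2b-cPEko* mouse A (0.061) or wild type mice A and B (0.25). Without 1 mouse it ranged from -0.11 (wild type mouse C) to 0.086. *Rfx2* turned positive without wild type mice A and B (0.18), which for *Rfx2* and *Crem* follows from leaving out their 2 highest mice. The cause of the other turns was not tested. The lowest adjusted p of any regulator over the 16 fits with at least 3 mice a genotype was 0.134, for *Taf7l* without wild type mouse C. Over those 16 fits the log2 fold change ran from -0.36 to -0.053 for *Rfx2* and from 0.036 to 0.24 for *Sox30*. It ran from 0.044 to 0.15 for *Mybl1* and from -0.14 to -0.050 for *Tcfl5*. For *Taf7l* it ran from -0.16 to -0.084, and for *Tbpl1* from -0.12 to -0.058.

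With the replicate letter as a block, 67 genes, 4 genes of the other lists and 0 regulators were called. Same-letter mice deviated with correlations of 0.020 (A), -0.130 (B), -0.039 (C) and 0.101 (D), so the letters were not taken to pair the mice. With 4 mice a genotype and a biological coefficient of variation of 9.56%, the 95% intervals of 6 of the 7 tested regulators included 0, and *Spz1* was limited by its 11 reads.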

Other observations

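Markers of somatic cells, which keep the poison exon on the floxed allele in both genotypes, were read beside the regulators. Sertoli markers (9 tested, 0 called by edgeR or DESeq2, 1 at an unadjusted p under 0.05) had a median log2 fold change of -0.04, with *Amh*, a hormone of immature Sertoli cells, at -0.37 (edgeR adjusted p = 0.325) and *Aard* at -0.11 (0.352). Leydig markers (6 tested, 0 called by edgeR, 1 at an unadjusted p under 0.05) had a median of 0.43, and DESeq2 called 1, beside 2.79% of all genes. This was *Lhcgr*, the luteinizing hormone receptor, at 24.1 ± 3.001 CPM in wild type against 33.1 ± 4.93 CPM in *Tra2b-cPEko* (SD, n = 4 each; log2 fold change 0.46, SE 0.12, edgeR adjusted p = 0.131, DESeq2 adjusted p = 0.00851). *Star* had 0.57 (edgeR adjusted p = 0.499) and *Hsd3b1* -0.09 (0.630).

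All 7 macrophage markers had a log2 fold change above 0, with a median of 0.23, and 0 were called by edgeR. An unadjusted p under 0.05 was found for 4, beside 15.3% of all genes. DESeq2 called 1, beside 2.79% of all genes. This was *Csf1r* (0.29, SE 0.08, edgeR adjusted p = 0.136, DESeq2 adjusted p = 0.0400). *Mrc1* had 0.32 (edgeR adjusted p = 0.193) and *C1qb* 0.28 (0.179). The 5 peritubular markers (0 called by edgeR or DESeq2, 2 at an unadjusted p under 0.05) had a median of 0.09, with *Myh11* at 0.21 (edgeR adjusted p = 0.167), *Tagln* at 0.15 (0.280) and *Acta2* at 0.08 (0.583). The 6 endothelial markers (0 called by edgeR or DESeq2, 0 at an unadjusted p under 0.05) had a median of 0.06, with *Pecam1* at 0.13 (edgeR adjusted p = 0.543), *Tek* at 0.07 (0.746) and *Cdh5* at 0.05 (0.765).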
